A study of Mus musculus with 8 samples.

Results

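Gli3, Sfrp1 and Bmpr1a are components of the Hedgehog, Wnt and BMP pathways of the hair follicle, and their ratios in skin of near naked hairless mutant mice against wild type mice are described here. The 3 genes were found through the RefSeq accession of their row in the deposited value table, with 1 probe each, among 6587 named genes. They had been picked because of their mutant over wild type ratios in these same arrays, so the ratios of the 3 genes are given as values without a test. All 3 passed the filter on missing values, as did 3779 named genes in all.

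Near naked hairless mice carry a mutation at the hairless locus and grow only sparse hair. Total RNA of mutant skin and of wild type skin was compared at an age of 7 days on 8 two-colour arrays, with 5 biological replicates from 1 litter per the design text. Which animal an array used is not recorded in the labels, so the p-values take each array as independent, and how far arrays that shared an animal would lower them was not tested. Dyes were swapped, with mutant RNA in Cy5 on arrays 2, 4, 6 and 7 and in Cy3 on arrays 1, 3, 5 and 8. The sources used here do not give the strain, the sex or the body site of the skin. The table holds ratios and no levels, so skin could not be checked by the level of its markers, and levels of different genes were not compared.

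In these pathways a secreted ligand acts between the epithelium of the follicle and the dermal cells next to it. Gli3 is a transcription factor that Hedgehog signalling controls, and it acts mainly as a repressor where Hedgehog is absent. Sfrp1 is a secreted protein that binds Wnt ligands and limits their action. Bmpr1a is a type I receptor of BMP ligands, which in the mouse is needed for the follicle's precursor cells to form the hair shaft and the inner root sheath.

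The promoter windows of Gli3 and Bmpr1a are shown because these 2 genes had ratios on opposite sides of 0. RefSeq sequences of the build GRCm38.p6 held a window for 2 of the 3 genes, and Sfrp1 was the other one. Each window is the 250 bases before a start of transcription. The Gli3 window ends just before the gene. The Bmpr1a window lies inside the span of its gene (chr14:34411061-34503336), so it does not precede the outermost start. The Gli3 window lies at chr13:15463473-15463722 on the plus strand and the Bmpr1a window at chr14:34502547-34502796 on the minus strand, and the capitals mark a match to GGCGCC, a motif bound by the SMAD proteins of BMP signalling.
Gli3: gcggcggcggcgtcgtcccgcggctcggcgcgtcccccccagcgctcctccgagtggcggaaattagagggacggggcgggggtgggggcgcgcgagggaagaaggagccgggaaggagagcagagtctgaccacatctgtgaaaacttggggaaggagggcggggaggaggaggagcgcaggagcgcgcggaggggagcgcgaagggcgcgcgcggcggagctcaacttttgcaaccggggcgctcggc
Bmpr1a: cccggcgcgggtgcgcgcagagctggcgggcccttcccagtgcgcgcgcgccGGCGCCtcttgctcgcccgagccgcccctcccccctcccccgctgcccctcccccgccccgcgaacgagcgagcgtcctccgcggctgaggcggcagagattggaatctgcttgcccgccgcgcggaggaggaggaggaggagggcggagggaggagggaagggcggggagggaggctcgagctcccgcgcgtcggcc

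Both windows were rich in G and C, at 72.8% for Gli3 and 78.8% for Bmpr1a, against a median of 52.4% over 32851 such windows. Gli3 had 34 CpG steps and Bmpr1a 36, against a median of 6. Both strands were searched for GACCACCCA of the GLI proteins, ATCAAAG of the TCF and LEF proteins, GGCGCC, and the SMAD palindrome GTCTAGAC. These letters occur in 0.225%, 3.21%, 9.59% and 0.167% of all windows. GGCGCC holds only G and C, and its share among windows as rich in G and C as these was not computed. The 1 match was GGCGCC in the Bmpr1a window, and a match to letters is a description of the sequence and not a site.

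The ratios are read as log2 of mutant over wild type. The base of the logarithm and the direction are not stated in the sources used here: base 2 is assumed, and the direction is the likely one, since channel 1 is called the sample and the design text names the mutant first. With the opposite direction, all signs below would turn together. The table was taken as already turned for the dye swap. Differences among the 232 replicate Gapdh spots, which carry 1 gene, correlated below 0 in all 16 pairs of arrays with opposite dyes (median r = -0.45) and above 0 in all 12 pairs with the same dyes (median r = 0.55). An array had a value for between 41.3% and 88.3% of rows, with SDs of the ratios from 0.57 on array 5 to 1.59 on array 2 over probe rows. In bulk skin, fewer cells of a type and less RNA per cell cannot be told apart.

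Gli3 had ratios of 2.15, 1.26, 1.56 and 0.76 on the arrays with mutant RNA in Cy5 (arrays 2, 4, 6 and 7). With mutant RNA in Cy3 (arrays 1, 3, 5 and 8) they were 1.18, 1.05, 0.78 and 1.45. The gene was therefore above 0 on 8 of 8 arrays, and the values of the 2 dye orientations overlapped. The mean was 1.27 ± 0.45 (SD, n = 8), and the fitted ratio of 1.27 ± 0.19 (SE) corresponds to a 2.42-fold higher signal in mutant skin. Its lowest values, on arrays 7 and 5, were near a log2 ratio of 0.8.

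The spots of Gapdh show how far spots of that 1 gene scatter on an array. Whether spots of Gli3, Sfrp1 or Bmpr1a scatter alike was not tested, so the counts are a description and no test. Gapdh medians ran from -0.19 on array 7 to 0.59 on array 4, which shifts the counts. No Gapdh spot reached the Gli3 ratio on arrays 1, 2, 5, 6 and 8. On array 4 it was reached by 1 of 224 Gapdh spots, on array 3 by 9 of 222 and on array 7 by 43 of 228. Array 7 thus gave both the lowest Gli3 ratio and the one most often reached by Gapdh spots, which had an SD of 0.91 there.

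Sfrp1 had ratios of 1.07, 0.49, 1.22 and 0.70 on arrays 2, 4, 6 and 7, with mutant RNA in Cy5. On arrays 3, 5 and 8, with mutant RNA in Cy3, they were 1.65, 0.45 and 2.50, and array 1 had no value. All 7 values were above 0, and the largest and the smallest both came from arrays with mutant RNA in Cy3. The mean was 1.16 ± 0.73 (SD, n = 7), and the fitted ratio of 1.20 ± 0.25 (SE) corresponds to a 2.30-fold higher signal in mutant skin.

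The ratio of Sfrp1 was reached by no Gapdh spot on arrays 6 and 8 and by 1 of 222 on array 3. On array 4, where the median of the Gapdh spots was itself 0.59, 166 of 224 spots reached it. On arrays 2 and 7 the counts were 87 of 227 and 57 of 228, and on array 5 it was 4 of 223.

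Bmpr1a had ratios of -3.45, -1.37, -0.50 and -0.09 on arrays 2, 4, 6 and 7, with mutant RNA in Cy5. On arrays 1, 5 and 8, with mutant RNA in Cy3, they were -0.57, -0.32 and -0.86, and array 3 had no value. All 7 values were below 0, but they ranged from nearly no difference on array 7 to array 2, which lay far below the rest. The mean was -1.02 ± 1.15 (SD, n = 7) and the fitted ratio -0.97 ± 0.35 (SE), a 1.96-fold lower signal in mutant skin. Without array 2 the fitted ratio was -0.62. A ratio as low as that of Bmpr1a was reached by no Gapdh spot on arrays 2, 4 and 8, but by 117 of 228 on array 7. The median of the Gapdh spots was itself 0.58, 0.59 and 0.06 on arrays 2, 4 and 8, and -0.19 on array 7.

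**Figure D1:**
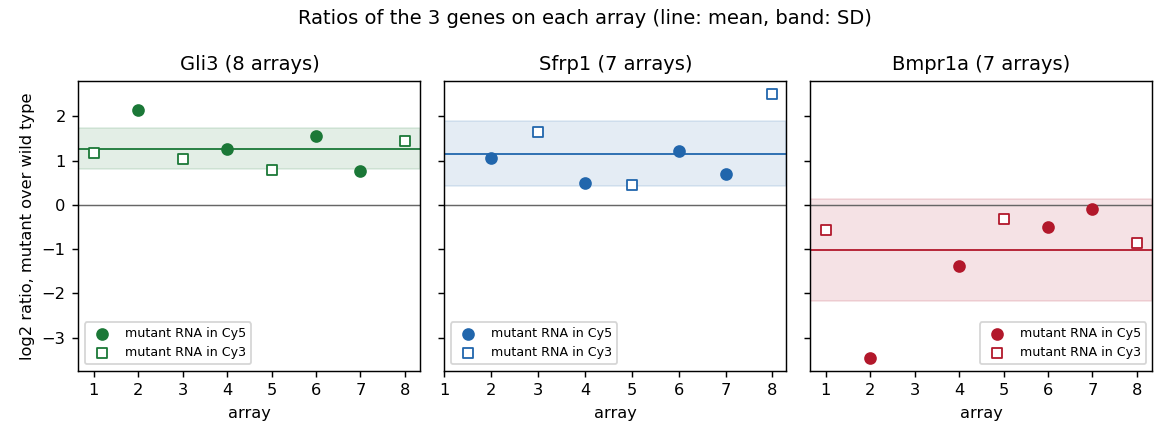
Log2 ratio of mutant over wild type (vertical axis) of Gli3, Sfrp1 and Bmpr1a on each array (horizontal axis); filled circles have mutant RNA in Cy5, open squares in Cy3, the line is the mean and the band 1 SD on each side. All Gli3 and Sfrp1 values lie above 0 and all Bmpr1a values below 0, with Bmpr1a at -3.45 on array 2.

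Since the arrays differed in spread, each gene was also placed among all named genes with a value on the same array. Gli3 was above between 74.7% (array 3) and 99.4% (array 6) of them, with a median of 93.7%. On array 6 only 33 of 6142 genes were higher. Sfrp1 was above between 73.1% (array 4) and 98.2% (array 6), with a median of 87.0%. Bmpr1a was above between 3.29% (array 2) and 42.4% (array 7), with a median of 15.4%. Bmpr1a was thus near the middle of array 7 and lowest on arrays 2 and 4, at 3.29% and 8.16%.

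**Figure D2:**
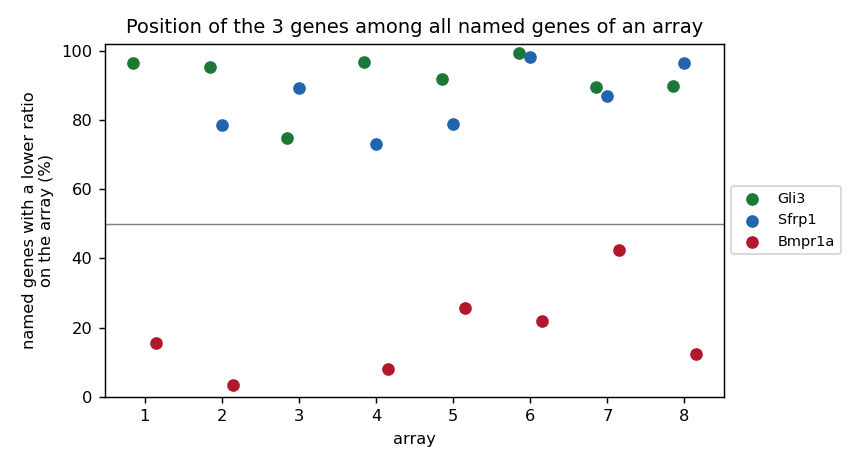
Share of named genes with a lower ratio than Gli3, Sfrp1 or Bmpr1a on the same array (vertical axis, in percent) for each array (horizontal axis); the line marks the middle. Gli3 and Sfrp1 lie between 73.1% and 99.4%, and Bmpr1a between 3.29% and 42.4%.

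Among the 3779 genes fitted, Gli3 ranked 25 and Sfrp1 31 from the highest ratio, and Bmpr1a ranked 126 from the lowest. Gli3 and Sfrp1 did not keep 1 order: Gli3 was the higher of the pair on 5 of 7 arrays, and their difference averaged 0.13 ± 0.75 (SD, n = 7). Sfrp1 was the higher one on arrays 3 and 8. Gli3 exceeded Bmpr1a on 7 of 7 shared arrays and Sfrp1 exceeded Bmpr1a on 6 of 6, which follows from their signs alone.

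The 2 dye orientations of the same ratios are compared as a description, since the genes were chosen on these values. Gli3 averaged 1.43 with mutant RNA in Cy5 and 1.12 with it in Cy3, a difference of 0.32 ± 0.38 (SE). Sfrp1 averaged 0.87 with Cy5 and 1.54 with Cy3 (difference -0.67 ± 0.50). Bmpr1a averaged -1.36 with Cy5 and -0.58 with Cy3 (difference -0.77 ± 0.70). Gli3 and Sfrp1 thus lay above 0 and Bmpr1a below 0 in both orientations.

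The other genes of the 3 pathways were read from lists, by role, in the same limma fit. Over all genes tested, 0.662% were higher in the mutant and 2.80% were lower, 3.47% in all, at an adjusted p under 0.05. Quantile normalization changed these counts to 128 higher and 222 lower genes; without it they were 25 and 106. Of 82 tested genes of the 3 pathways, Gli3, Sfrp1 and Bmpr1a left out, 1 was lower (1.22%) and 0 were higher, while 14 (17.1%) had an unadjusted p under 0.05, against 737 of all 3779 genes (19.5%). Their median ratio was 0.12, against 0.05 over all genes tested.

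In the Hedgehog list 15 of 24 genes with a probe were tested, with 4 (26.7%) at an unadjusted p under 0.05, against 19.5% of all genes. Their median ratio was 0.10, with 11 above 0 and 4 below. In the limma test 1 gene (6.67%) was lower in the mutant, against 2.80% of all genes. That gene was Cul3, the scaffold of a ubiquitin ligase that, with the adaptor Spop, marks Gli proteins for degradation and that also serves many other substrates. Cul3 had ratios of -2.18, -3.36, -1.93 and -2.01 with mutant RNA in Cy5 (arrays 2, 4, 6 and 7) and of -1.48, 1.11, -1.07 and -1.21 with it in Cy3 (arrays 1, 3, 5 and 8). It was below 0 on 7 of 8 arrays, with array 3 alone above, and every Cy5 value lay below every Cy3 value (dye part -1.71, adjusted p = 0.0844, where 1.75% of all genes passed for the dye part). The fitted ratio was -1.52 ± 0.29 (SE, adjusted p = 0.0133). The call ended without a dye term (adjusted p = 0.0596), with arrays 4 to 8 alone (adjusted p = 0.0526) and in the reading as Cy5 over Cy3 (adjusted p = 0.0844). It held in all 8 fits that left out 1 array (highest adjusted p = 0.0491).

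The other Hedgehog genes tested did not pass. Cdon, a co-receptor of Hedgehog ligands, had a ratio of 0.34 (adjusted p = 0.429), above 0 on the 4 arrays with mutant RNA in Cy5 and below 0 on the other 4. Sufu, which holds Gli proteins in the cytoplasm, had 0.16 and Spop 0.22. Btrc, a ubiquitin ligase subunit that takes part in Gli3 processing and in the turnover of beta-catenin, had -0.58 (adjusted p = 0.179). For Btrc every Cy5 value lay below every Cy3 value.

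Genes of the primary cilium, where Gli proteins are processed, had ratios from 0.07 to 0.61 and none of 5 passed. Ift172, of the transport machinery of the cilium, had 0.61 (adjusted p = 0.138), with all 4 values above 0 in Cy5 and all 4 below 0 in Cy3. Tulp3, which carries receptors into the cilium, had 0.47 (adjusted p = 0.174). Of the targets, Foxm1 had 0.53, Mycn 0.31 and Ccnd2 -0.32. Ptch1 and Gli1, the usual readouts of Hedgehog activity, were measured on 6 and 5 arrays and did not pass the filter on missing values. Their mean ratios were 0.05 for Ptch1 and 0.11 for Gli1.

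In the Wnt list 38 of 66 genes with a probe were tested and none passed the limma test, with 7 (18.4%) at an unadjusted p under 0.05, near the 19.5% of all genes. Their median ratio was 0.06, with 20 above 0 and 18 below. Closest to the threshold was Tle2, a corepressor that binds TCF proteins. Tle2 had ratios of -0.43, -1.87, -1.41 and -0.27 with mutant RNA in Cy5 (arrays 2, 4, 6 and 7) and of -0.97, -0.71 and -1.05 with it in Cy3 (arrays 1, 5 and 8). It was below 0 on 7 of 7 arrays, and the fitted ratio was -0.95 ± 0.23 (SE, adjusted p = 0.0511). Tle2 passed after centring and scaling the arrays (adjusted p = 0.0303), after quantile normalization (adjusted p = 0.0124) and without array 3, on which it has no value (adjusted p = 0.0459).

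Among Wnt receptors Fzd1, a Frizzled receptor, had ratios of 2.16, 0.24, 0.52 and -0.03 with mutant RNA in Cy5 and of 1.92, 1.37 and 0.45 in Cy3 on arrays 3, 5 and 8. Its fitted ratio was 0.98 ± 0.29 (SE, adjusted p = 0.0892), with 6 of 7 arrays above 0, and it passed only after quantile normalization (0.94, adjusted p = 0.0305). Ror1, a receptor of Wnt5a in the mouse, had 0.40 (adjusted p = 0.30), and every Cy5 value lay below every Cy3 value. Of 10 ligands tested, Wnt5a had 0.64 (adjusted p = 0.421) with 3.11 on array 8, and Wnt5b had 0.54 (adjusted p = 0.130). The ligand Wnt2b was measured on 6 arrays and did not pass the filter on missing values. Its mean was -1.61, below 0 on all 6. With values on at least 2 of 4 arrays of each orientation, it was past the limma test at -1.45 (adjusted p = 0.0326).

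The other secreted Wnt antagonists had ratios on both sides of 0, and none of those tested passed. Sfrp2 had a fitted ratio of -0.13 (adjusted p = 0.819), above 0 on 4 arrays and below 0 on 4. Sfrp4 had 0.12 (adjusted p = 0.806), Dkk3 0.43 (adjusted p = 0.269) and Dkk1, which blocks the Lrp co-receptors, -0.25 (adjusted p = 0.733). For Dkk3 every Cy5 value lay below every Cy3 value. Wif1, which binds Wnt ligands, was measured on 5 arrays and did not pass the filter. Its ratios were 0.63, 1.80 and 1.00 with mutant RNA in Cy5 (arrays 4, 6 and 7) and 1.64 and 0.24 with it in Cy3 (arrays 5 and 8), above 0 on 5 of 5 arrays. On these 5 arrays Sfrp1 averaged 1.07 and Wif1 1.06. Frzb, another Frizzled-related protein, had a mean of -0.89 on 6 arrays and was below 0 on all 6.

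Inside the Wnt-receiving cell, Nkd2, an inhibitor that binds Dishevelled, had 0.67 (adjusted p = 0.175), above 0 on 6 of 6 arrays. The related Nkd1 had -0.66 (adjusted p = 0.144), and every Cy3 value lay below every Cy5 value. Ctnnb1, which encodes beta-catenin, had 0.11 and Lef1, a transcription factor that acts with it, 0.03. Of the targets, Ccn4 had -0.18 and Ccn5 -0.32. For Ccn4 all Cy5 values were below 0 and all Cy3 values above 0. Axin2, a target often used as a readout of the pathway, had a mean of 0.70 on 6 arrays and did not pass the filter. It was at 3.39 on array 8, and the other arrays averaged 0.16.

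In the BMP list 30 of 44 genes with a probe were tested and none passed the limma test, with 4 (13.3%) at an unadjusted p under 0.05, against 19.5% of all genes. Their median ratio was 0.17, with 22 above 0 and 8 below, while over all genes tested 2088 were above 0 and 1691 below. Bmpr1b, the closest relative of Bmpr1a, had a fitted ratio of -0.11 (adjusted p = 0.813), with 4 arrays above 0 and 3 below. Acvr2a, a type II receptor, had 0.45 (adjusted p = 0.370) with 2.47 on array 2, and its mean without that array was near 0, with 3 of 7 arrays below 0. For Acvr2a every Cy5 value lay above every Cy3 value. Acvrl1, a type I receptor of blood vessels, had 0.36 (adjusted p = 0.290) with 8 of 8 arrays above 0. Bmpr2, the main type II partner, was measured on 5 arrays, with a mean of -0.07.

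Among BMP ligands Bmp5 had -0.67 (adjusted p = 0.188), below 0 on 7 of 8 arrays and at 1.34 on array 3. Bmp8a had 0.41 (adjusted p = 0.252) and Bmp4, a ligand made in the dermal papilla, 0.01 (adjusted p = 0.979). The antagonists Htra1 and Grem1 both had 0.42, with adjusted p of 0.344 and 0.30, and Nog, which binds BMP ligands, had -0.21. Smad1 and Smad5, which carry the signal to the nucleus, had -0.09 and 0.20, Smad4, their shared partner, 0.20 and Tob1, an inhibitor of Smad activity, -0.47. Of 8 targets, Id2 had 0.37 (adjusted p = 0.330), Foxn1, a transcription factor of the hair matrix, 0.47 (adjusted p = 0.163) and Msx1 -0.36 (adjusted p = 0.236). Foxn1 was above 0 on all arrays with mutant RNA in Cy5 and below 0 on all with it in Cy3. The 2 dye orientations also did not overlap for Msx1, Bmp5, Grem1, Smad5 and Tob1.

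**Figure D3:**
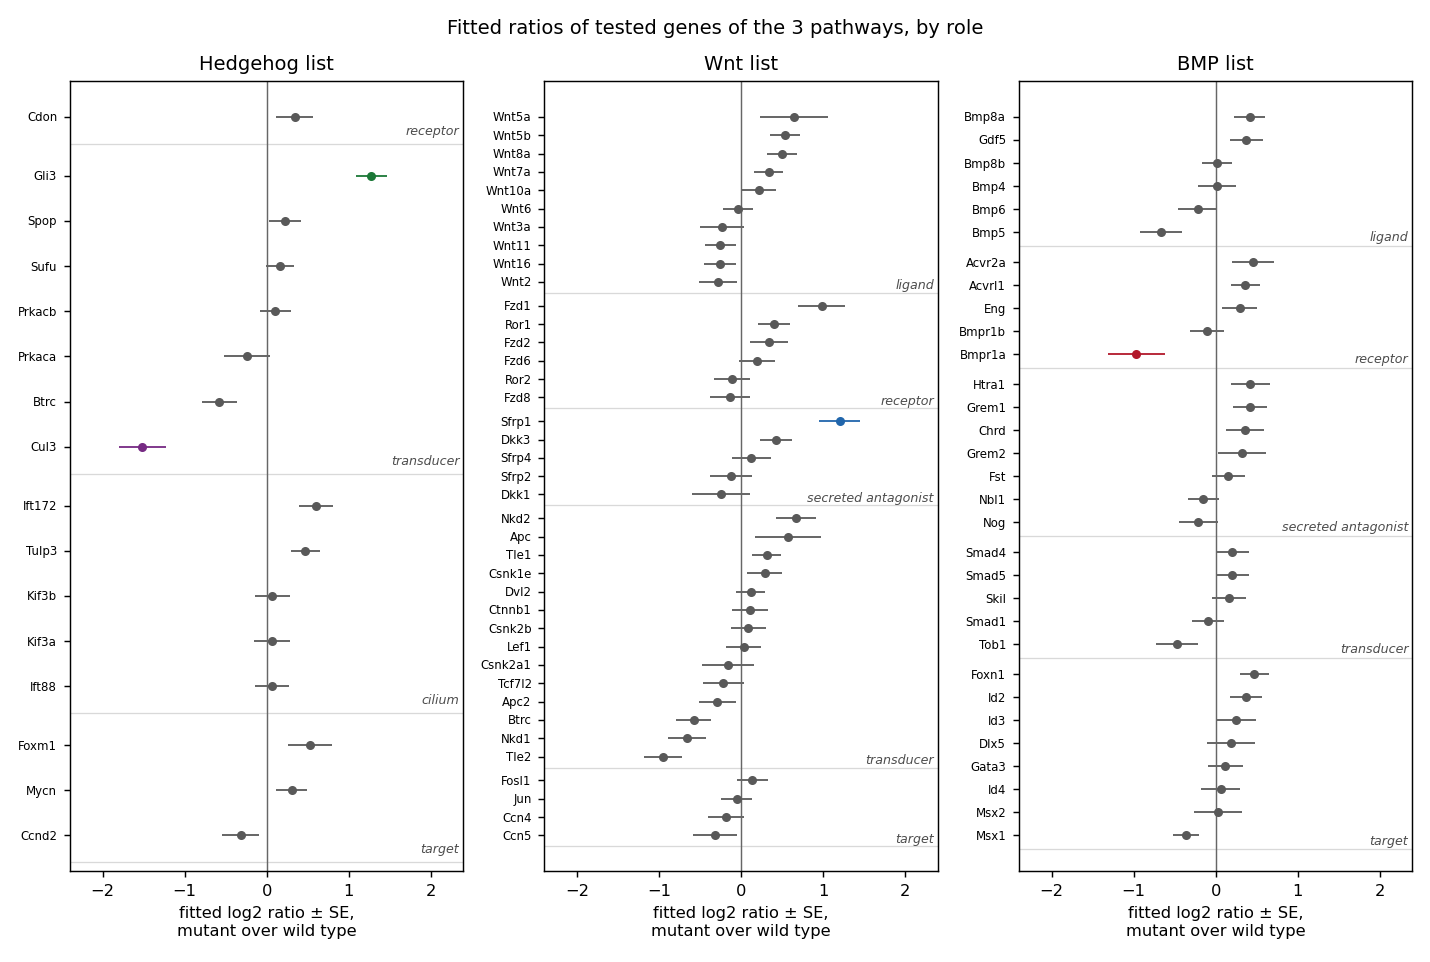
Fitted log2 ratio of mutant over wild type (horizontal axis) with its SE as a bar, for each tested gene of the Hedgehog, Wnt and BMP lists, grouped by role. Gli3 at 1.27 (green), Sfrp1 at 1.20 (blue) and Bmpr1a at -0.97 (red) were chosen for their ratios, and Cul3 at -1.52 (purple) is the 1 gene past the test among the rest, in which these 3 were not counted.

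Markers of cell types in skin were read beside these ratios, and their part in the ratios of Gli3, Sfrp1 and Bmpr1a was not tested. Of 15 dermal fibroblast markers 10 were tested and 2 (20%) were higher, against 0.662% of all genes. An unadjusted p under 0.05 was found for 6 (60%), against 19.5% of all genes. Fitted ratios were above 0 for 8 markers and below 0 for 2, Lum at -0.21 and Thy1 at -0.03. The 2 higher markers were Vim at 1.17 ± 0.19 (SE, adjusted p = 0.00889) and Fbn1 at 0.75 (adjusted p = 0.0496). Vim encodes the intermediate filament of mesenchymal cells, and Fbn1 a fibrillin. Vim had 0.21 to 0.90 with mutant RNA in Cy5 and 1.40 to 2.37 with it in Cy3. Fbn1 had 0.86 to 1.97 with mutant RNA in Cy5 and -0.27 to 0.64 with it in Cy3, and was below 0 on 2 of 8 arrays. The 2 orientations did not overlap for either gene, with opposite orders. The Vim call held in all 8 fits that left out 1 array, and the Fbn1 call in 1 of 8, the one without array 3 (highest adjusted p = 0.135). The median of the fibroblast markers with a value was above 0 on 7 of 8 arrays and ran from -0.07 on array 2 to 1.35 on array 8. Array 8 was also where Sfrp1 was highest, whereas Gli3 was highest on array 2. The medians of the hair cortex (0.11) and keratinocyte (1.18) markers were highest on array 8 too, and that of the papilla markers (0.42) on array 7. Pdgfra, a receptor of dermal fibroblasts, had a fitted ratio of 1.09 (adjusted p = 0.224).

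Of 11 dermal papilla markers 4 were tested and none passed, with 2 at an unadjusted p under 0.05 (19.5% over all genes), and Prdm1 had 0.92 (adjusted p = 0.225) and Vcan 0.81 (adjusted p = 0.115). The median of the papilla markers ran from -0.36 to 0.42 over arrays. Of 10 keratins of the hair cortex 3 were tested and 1 was lower (2.80% over all genes), Krt31 with -1.27 ± 0.23 (SE, adjusted p = 0.0133). Krt33a had -0.58 (adjusted p = 0.184) and was below 0 on 6 of 7 arrays. Krt35 had 0.63 (adjusted p = 0.434) with 4.83 on array 8, and its mean without that array was 0.03. All Cy5 values of Krt35 were below 0 and all Cy3 values above 0. The median of the cortex keratins ran from -1.21 on array 2 to 0.11 on array 8 and was below 0 on 6 of 8 arrays. Of 11 keratinocyte markers 3 were tested and 1 was higher (0.662% over all genes). It was Krt1, of the suprabasal epidermis, with 1.30 ± 0.27 (SE, adjusted p = 0.0241). Ivl, of the cornified envelope, had -1.06 (adjusted p = 0.0733), and every Cy5 value of Ivl lay below every Cy3 value. The median of the keratinocyte markers ran from -0.51 on array 2 to 1.18 on array 8. Without 1 array the call of Krt1 ended for arrays 1, 5 and 6 (highest adjusted p = 0.103) and that of Krt31 for array 5 (adjusted p = 0.0514). Defining markers of these cell types could not be read as present or absent, since the table gives ratios.

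The genes most like each of the 3 in their pattern over arrays were taken by Pearson correlation, as a description over arrays that share dyes and may share animals. They are the highest of many correlations over few arrays, and how high unrelated genes would reach was not tested. Values without 1 array are for genes picked with that array included, so they are no independent check. For Gli3, among 1612 genes with values on all 8 arrays, they were Leprotl1 (r = 0.92), Cirbp (r = 0.92) and Nrsn1 (r = 0.90). Without array 2, on which Gli3 was highest, these were 0.80, 0.77 and 0.81. Leprotl1 was above 0 on 3 arrays only, so that likeness in pattern did not mean a like ratio.

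For Sfrp1, among 1780 genes on its 7 arrays, they were Vcl (r = 0.95), Gad2 (r = 0.94) and Ttf1 (r = 0.93), and 0.85, 0.81 and 0.83 without array 8. For Bmpr1a, among 2184 genes on its 7 arrays, they were Has1 (r = 0.99), Atp2a2 (r = 0.98) and Sh3gl2 (r = 0.98). Has1 was at -6.18 on its lowest array and Sh3gl2 at -5.72. Without array 2 the correlations with Bmpr1a were 0.93, 0.92 and 0.93.

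The fitted ratios of the 3 genes kept their sign in every fit that left the direction of the table as read. Leaving out 1 array at a time gave 1.15 to 1.39 for Gli3, 0.96 (without array 8) to 1.47 (without array 5) for Sfrp1 and -1.18 (without array 7) to -0.62 (without array 2) for Bmpr1a. On arrays 4 to 8 alone, those with the most values, the ratios were 1.15 for Gli3, 1.14 for Sfrp1 and -0.62 for Bmpr1a. If the table were one dye over the other, Cy5 over Cy3, the ratios would be 0.16 for Gli3, -0.33 for Sfrp1 and -0.39 for Bmpr1a.

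**Figure D4:**
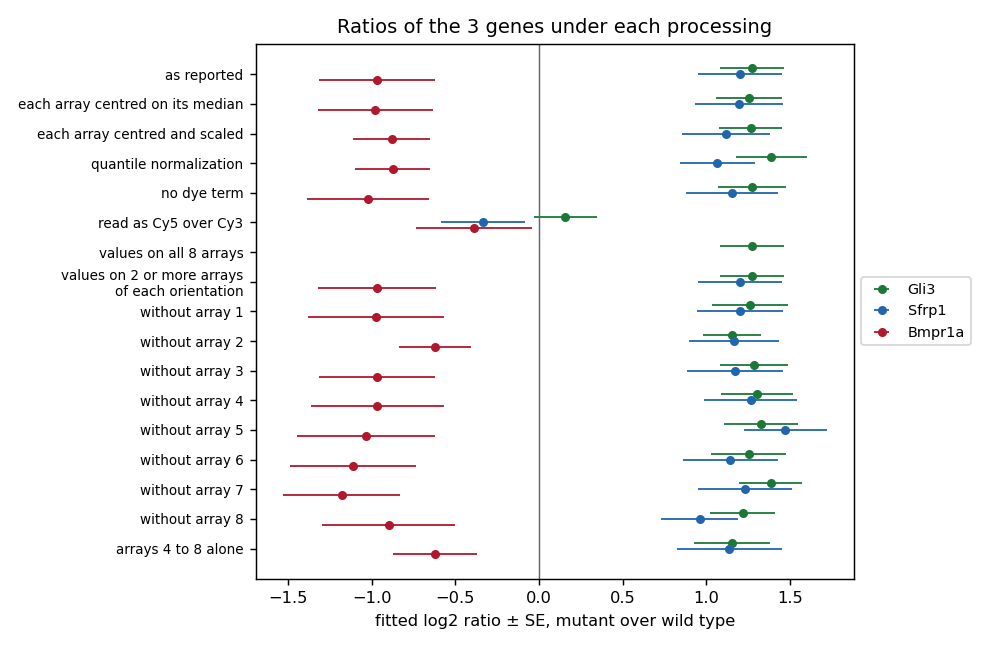
Fitted log2 ratio of mutant over wild type (horizontal axis) with its SE for Gli3, Sfrp1 and Bmpr1a under each processing (vertical axis). Gli3 lies above 0 and Bmpr1a below 0 throughout, at 0.16 and -0.39 in the reading as Cy5 over Cy3, and Sfrp1 lies above 0 except in that reading, at -0.33. Sfrp1 and Bmpr1a have no value on all 8 arrays.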

How the data were processed

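The authors deposited 1 table with a log ratio per spot and array, read as log2, and spot intensities were not analysed here. Dyes were coupled and hybridized by standard TIGR protocols, per the labels' protocols; the image analysis, normalization, log base and direction are not stated in those sources. Of 23232 rows, 21997 held probes and the rest were blank, buffer or control spots, which were left out. Rows were named by RefSeq accession without version (6749 rows) or by synonym (77 rows) through a RefSeq gene table of GRCm38.p6, and 15171 had no match. Spots of a probe and probes of a gene were averaged.

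Genes with values on at least 3 of 4 arrays of each dye orientation entered a limma 3.58.1 fit (R 4.3.3) of the mean ratio and the dye orientation. Moderated (empirical Bayes) p-values were adjusted by Benjamini-Hochberg over 3779 genes at 0.05. The fit was also run on simulated ratios, with independent arrays and no dye effect. That run checked the size and sign of the estimates. It could not check the p-values where dyes have effects or arrays share animals. Positions and correlations were computed with Python 3.11.15 and pandas 2.3.3. The number of arrays limits the precision, and p-values measure the spread between arrays, which is in part technical.

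The 3 genes and the gene lists were chosen with earlier results of these data known, and 1 gene is not reported here. Named were the 3 genes, each listed gene past the test, the 2 tested genes of largest absolute ratio per role or marker list, and the 3 most correlated genes of each member. Further genes (relatives, ligands, usual readouts of each pathway) were named after their values were seen. Alternatives were other normalizations, no dye term, the reading as Cy5 over Cy3, other filters on missing values and fewer arrays.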

Additional observations from a re-analysis of the deposited data

Results flagged for a closer look

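Dixon's test for a single distant array was run on 43 named genes and marker medians, and it marked 4 of them. With equal spread on all arrays, about 1 in 20 would be marked by chance, which is 2.15 here. The arrays differed in spread and many of the genes were picked for large ratios, so the chance count of this set is not known. Genes that did not pass the filter on missing values, such as Axin2, were not among the 43. Bmpr1a was at -3.45 on array 2, and its next lowest value was -1.37. Acvrl1 was at 1.24 on array 2, with its next value at 0.35. Pdgfra was at 3.98 on array 8, with its next value at 1.17. Krt35 was at 4.83 on array 8, with its next value at 1.67. Arrays 2 and 8 each gave 2 of the 4, and arrays 2, 3 and 8 were the 3 with the widest spread of ratios (SD 1.59, 1.32 and 1.10).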

How the results depend on the processing

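The ratios of Gli3, Sfrp1 and Bmpr1a moved by less than their SD over arrays in all alternatives except the reading as Cy5 over Cy3, which gave 0.16 for Gli3 and -0.33 for Sfrp1. Leaving out 1 array gave 1.15 to 1.39, 0.96 to 1.47 and -1.18 to -0.62. The count of Hedgehog genes past the test was 1, and 0 without a dye term, as Cy5 over Cy3 and with arrays 4 to 8 alone, and 1 in each fit without 1 array. The count of Wnt genes was 0, and 1 after centring and scaling, 3 after quantile normalization (Fzd1, Nkd1 and Tle2), 1 with values on at least 2 of 4 arrays of each orientation (Wnt2b), and 0 to 1 without 1 array. The count of BMP genes was 0, and 1 as Cy5 over Cy3 (Fst). Higher genes numbered 25 in all, against 43 after centring and scaling, 128 after quantile normalization, 5 without a dye term, 62 as Cy5 over Cy3, 12 with the looser filter, 0 with arrays 4 to 8 alone, and 6 to 21 without 1 array (leaving out array 1 gave 6, array 4 or 6 gave 8, array 2 gave 11, and array 5 or 7 gave 15). Lower genes numbered 106, against 163, 222, 59 and 4 in the first 4 of these, 55 with values on all 8 arrays, 8 with arrays 4 to 8 alone, and 47 to 112 without 1 array (leaving out array 1 gave 47, array 6 gave 52 and array 5 gave 57). Among the markers, the reading as Cy5 over Cy3 turned Vim to -0.71 and Krt1 to -0.40, neither past the test; without a dye term Vim, Fbn1 and Krt1 did not pass, and with arrays 4 to 8 alone none of Vim, Fbn1, Krt1 and Krt31 did. The cause of these differences was not tested. With values required on all 8 arrays Sfrp1 and Bmpr1a gave no value. No paired analysis was possible because each array is 1 comparison of mutant with wild type. Signal over background was not analysed here.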
